A study of Mus musculus with 6 samples.

Results

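*Adrb1*-positive astrocytes were taken here as amygdala astrocytes with at least 1 sequenced molecule (unique molecular identifier, UMI) of *Adrb1*, the gene of the β1-adrenoreceptor. They numbered 1618 among 8136 astrocytes, which were themselves drawn from 13546 cell barcodes in 3 single-cell RNA-seq libraries. A barcode counted as an astrocyte when it had at least 500 detected genes, under 6% mitochondrial UMIs, at least 20 UMIs of the glutamate transporter genes *Slc1a2* and *Slc1a3* together, and at most 3 UMIs of the pericyte genes *Vtn* and *Rgs5* together. No hashtag call was needed for membership, so that cells of all mice in a library were used. The members were thus chosen by their measured *Adrb1* counts, and values of *Adrb1* below are a description.

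The labels give male wild-type C57BL/6N mice, whereas the methods name C57BL/6NCrSlc for wild-type animals and both sexes for the experiments as a whole. The mice were young adults without a transgene, and each library pooled cells that had been sorted from the amygdala with an antibody to the astrocyte surface protein ATP1B2. The 16 mice listed in the hashtag table fell into 4 groups of 4. Of 2771 astrocytes that hashtags called as single cells, 1893 had a listed mouse, so that some members may come from other animals. NoFC mice visited the chamber without a shock, FC mice received the foot shock, NoFR mice were shocked and stayed in the home cage on the next day, and FR mice were shocked and returned to the same chamber for recall. Tissue of these groups was taken 90 min after behaviour began, and transcription and translation inhibitors were present during dissociation. Libraries 1, 2 and 3 held 42350059, 31700569 and 33368825 gene UMIs on 5287, 3631 and 4628 barcodes. Between 3 and 8 barcode sequences were shared by any pair of libraries, of which 1 to 4 were astrocytes in both.

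The β1-adrenoreceptor is a receptor for noradrenaline that couples to the G protein Gs. Its activation stimulates adenylyl cyclase, raises cAMP and engages protein kinase A and CREB, and phosphodiesterases end the signal by breaking cAMP down. Astrocytes also carry the α1A-receptor, encoded by *Adra1a*, which couples to Gq and releases calcium from internal stores. IGFBP2, which recurs in the results below, is a secreted protein that binds insulin-like growth factors.

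*Adrb1* (ENSMUSG00000035283) spans bases 56722199 to 56733113 of chromosome 19 and *Igfbp2* (ENSMUSG00000039323) bases 72824503 to 72852474 of chromosome 1, both on the forward strand (GRCm38, GENCODE vM21). The 250 bases upstream of the start that RefSeq gives for each gene on GRCm38.p6 are shown because the receptor signals through cAMP, whose response element has the core TGACGTCA. The capitals mark its half-site, TGACG or the reverse complement CGTCA. The *Adrb1* window spans chr19:56721867-56722116 and the *Igfbp2* window chr1:72824230-72824479, both on the forward strand.
Adrb1: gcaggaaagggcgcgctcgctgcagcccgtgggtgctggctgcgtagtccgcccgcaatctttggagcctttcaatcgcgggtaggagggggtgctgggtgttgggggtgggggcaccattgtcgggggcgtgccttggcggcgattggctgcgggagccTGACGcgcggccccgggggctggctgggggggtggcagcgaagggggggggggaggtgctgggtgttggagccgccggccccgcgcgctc
Igfbp2: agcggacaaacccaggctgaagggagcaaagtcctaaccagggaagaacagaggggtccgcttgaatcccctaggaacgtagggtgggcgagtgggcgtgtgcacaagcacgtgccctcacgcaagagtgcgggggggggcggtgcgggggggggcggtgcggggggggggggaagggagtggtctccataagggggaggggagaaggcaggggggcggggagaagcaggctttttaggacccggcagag
The half-site occurred once in the *Adrb1* window and in neither that *Igfbp2* window nor the one before a second start of this gene. It was found in 17.8% of the 32851 promoters searched in the same way, and the whole element in 1.55%, so that the match in *Adrb1* describes the letters of this window and not a site of binding.

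In library 1, 636 of 3316 astrocytes were positive (19.2%), in library 2, 466 of 2340 (19.9%) and in library 3, 516 of 2480 (20.8%). Over all libraries the share was 19.9% (Wilson 95% confidence interval 19.0 to 20.8%, counting error only). Most members stood just inside the threshold: 1276 had 1 *Adrb1* UMI, 281 had 2 and 61 had 3 or more, with a highest count of 6. The 6518 astrocytes just outside it had none. Summed over all astrocytes of a library, *Adrb1* was at 22.6, 21.8 and 23.9 UMIs per 1000000 gene UMIs (CPM) in libraries 1, 2 and 3.

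Very few pericyte barcodes carried the transcript. Pericyte barcodes had at least 20 *Vtn* and *Rgs5* UMIs and at most 3 *Slc1a2* and *Slc1a3* UMIs. Of 2134 such barcodes, 2 had an *Adrb1* UMI (0.0937%, exact 95% confidence interval 0.0114 to 0.338%, counting error only). The median of pericyte barcodes was 5040 UMIs a cell, against 10250.5 in astrocytes. How often the transcript was seen depended on how deeply a cell was sequenced. Over 4 bins of 2034 astrocytes each, from the fewest to the most total UMIs, the positive share was 10.6%, 18.1%, 21.7% and 29.1%, whereas the *Adrb1* level in the same bins was 20.9, 24.1, 23.2 and 22.3 CPM. Members accordingly had a median of 11721.5 UMIs and negative astrocytes 9928. An astrocyte without an *Adrb1* UMI may thus still carry the transcript, and each member was compared with an *Adrb1*-negative astrocyte of its own library and of nearly the same total UMIs.

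**Figure D1:**
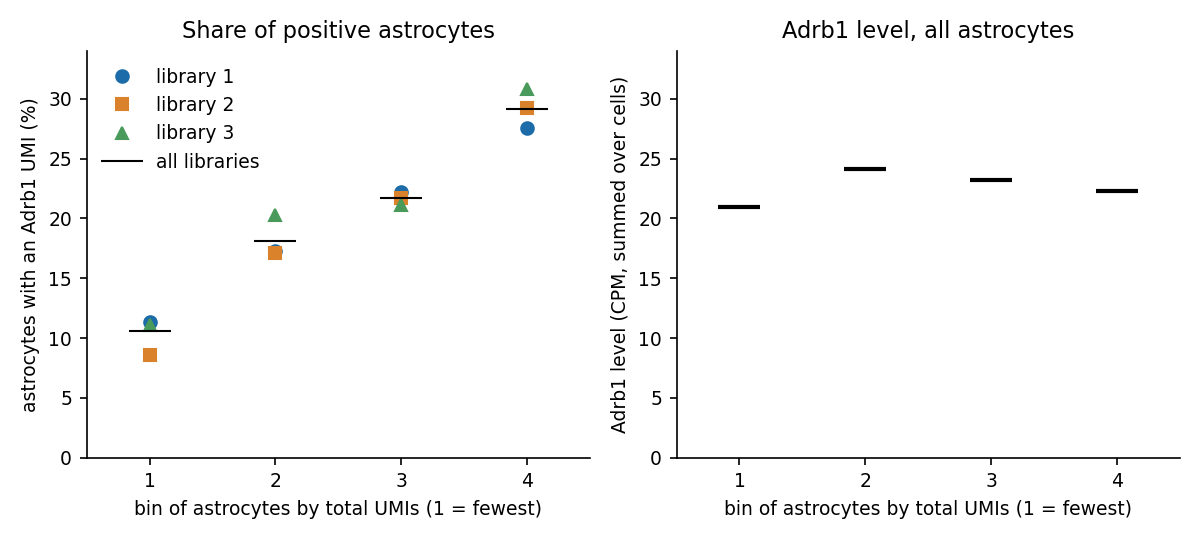
Left, share of astrocytes with an Adrb1 UMI (%) in 4 bins of total UMIs, by library and over all libraries (bars); right, Adrb1 level over all astrocytes of each bin (CPM). The share runs from 10.6% to 29.1% across bins whereas the level stays between 20.9 and 24.1 CPM.

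The members carried the markers of astrocytes. In libraries 1, 2 and 3, the water channel gene *Aqp4* was detected in 96.4%, 96.4% and 95.5% of members, the gap junction gene *Gja1* in 97.6%, 98.7% and 99.2%, and the transcription factor gene *Sox9* in 90.7%, 92.3% and 91.7%. The bicarbonate transporter gene *Slc4a4* was found in every member. The pericyte gene *Pdgfrb* was detected in 52.8%, 52.8% and 56.0% of members and in 50.2%, 51.1% and 55.0% of the matched negatives. The pericyte channel gene *Kcnj8* was found in 3, 1 and 4 members of the 3 libraries.

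After matching, members and negatives had median totals of 11321 and 11321 UMIs in library 1, 12390 and 12387.5 in library 2, and 11604 and 11605.5 in library 3. UMIs of the cells of each class were summed within each library and tested across 13067 genes with edgeR's quasi-likelihood test, with the library as a block and Benjamini-Hochberg adjustment over all genes. *Adrb1* and the genes that set the astrocyte gate were left out. At an adjusted p under 0.05, 372 genes were called (2.85%), of which 82 were higher in members (0.628%) and 290 lower (2.22%). The libraries are pools of mice and each contributes its members and its negatives, so that the replicates are 3 pools. EdgeR's quasi-likelihood test moderates the spread of each gene by that of the other genes. Small p-values therefore do not rest on the 3 pools alone. The smallest 2-sided p that an exact sign test over 3 libraries allows is 0.25. The count of called genes moved to 242 without library 1, to 85 without the library block and to 54 in DESeq2.

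The 12 genes that fell with the smallest p included thymosin, transcription factor and cell cycle genes. *Tmsb4x*, which encodes an actin-sequestering thymosin, was at 152.2, 93.5 and 84.1 CPM in the members of libraries 1, 2 and 3 and at 348.1, 258.5 and 313.1 CPM in their negatives (log2 fold change −1.49, SE 0.063, adjusted p = 3.8e-22 in edgeR). *Sox4*, a transcription factor gene of young neurons, was at 19.0, 14.1 and 19.1 CPM against 68.4, 61.2 and 58.1 CPM (log2 −1.84, SE 0.090). Its relative *Sox11* was at 22.6, 17.0 and 18.3 CPM against 48.9, 47.3 and 79.1 CPM (log2 −1.57). In each of these the libraries of the 2 classes did not overlap. The falls were smaller against all negatives without matching, although still called in edgeR. *Tmsb4x* was then at log2 −0.97, *Sox4* at −1.22 and *Sox11* at −1.16. *Tmsb10*, *Stmn1*, which encodes a protein that destabilises microtubules, the cell cycle kinase gene *Cdk6*, the axon guidance gene *Draxin*, *Pak3*, *Dscaml1*, *Ptma* and the long noncoding RNA *Miat* were also among the 12 lower genes of smallest p.

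Of 9 markers of cycling and progenitor cells, 7 were tested, all with values below 0. EdgeR called 6 of them lower in members, beside 2.22% of all genes, among them *Sox11*, *Top2a*, *Mki67*, *Egfr* and *Cdk1*, and DESeq2 called 1. Their median log2 fold change was −1.55 and that of all genes tested 0.00. Summed over the list, in which *Egfr* was the most abundant gene, the level was 335.8, 326.0 and 299.2 CPM in the members of libraries 1, 2 and 3 and 499.4, 402.5 and 451.3 CPM in negatives. *Top2a*, a DNA topoisomerase gene of dividing cells, was found in 0.314%, 0.215% and 0% of members and in 1.42%, 0.644% and 0.775% of negatives. Few barcodes thus carried the transcript. Across all astrocytes, 51 barcodes had 51 to 511 UMIs of the list, at a median of 28976 total UMIs and 57 *Slc1a2* and *Slc1a3* UMIs, and 3 of them were *Adrb1*-positive (5.88%). Of 214 astrocytes with 11 to 20 UMIs of the list, 75 were positive (35.0%), at a median of 17595.5 total UMIs. The cytosolic ribosomal protein genes moved with these markers: of 85 tested, edgeR called 62 lower in members, beside 2.22% of all genes, and 0 higher, and DESeq2 called 8, with 83 values below 0 and a median log2 fold change of −0.21. Of 5 tested neuron markers, edgeR called 2 lower (*Snap25* and *Rbfox3*), beside 2.22% of all genes, and DESeq2 called 1. The summed level of the 9 markers, led by *Snap25*, was 14.4, 11.9 and 13.1 CPM in members and 23.5, 19.3 and 32.3 CPM in negatives.

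The comparison was therefore repeated without the 54 astrocytes that had more than 30 UMIs of the progenitor list, a step added after these values were seen, with 1615 members and newly matched negatives. The new match was less close among some cells. By rank, the largest gap between classes in log10 total UMIs was 0.0970, 0.0318 and 0.203 in libraries 1, 2 and 3. It had been 0.0123, 0.0179 and 0.0930 before. Of 12920 genes tested, 50 were called (0.387%), 14 of them higher in members (0.108%) and 36 lower (0.279%), and 32 of the 50 were among the earlier 372 calls. This count moved to 24 without library 1, 27 without library 2, 1 without the library block (*Igfbp2*) and 3 in DESeq2 (*Igfbp2* and *Pde10a* among them). Of the 12 lower genes of smallest p, 7 could still be tested and 1 was called, *Pde10a*. Without these barcodes *Tmsb4x* was at 97.9, 85.6 and 83.2 CPM in members and at 88.0, 79.6 and 100.6 CPM in negatives (log2 −0.00, adjusted p = 0.992 in edgeR), and the libraries of the classes overlapped. Of the 85 ribosomal protein genes, 0 were called in edgeR or DESeq2 and 4 had an unadjusted p under 0.05, with a median log2 fold change of 0.03. Values were now above 0 in 67 of the 85, and the list, led by *Rpl41*, summed to 13159, 12084 and 12081 CPM in members and 12873, 11825 and 11559 CPM in negatives, higher in members within each library. Of the 4 cycling and progenitor markers that could still be tested, 0 were called (0 at an unadjusted p under 0.05); this list chose the barcodes left out. Of 4 neuron markers tested, 0 were called in edgeR or DESeq2 (1 at an unadjusted p under 0.05). Of the 12 higher genes of smallest p, 8 kept their call. The results below are given without these barcodes unless stated.

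**Figure D2:**
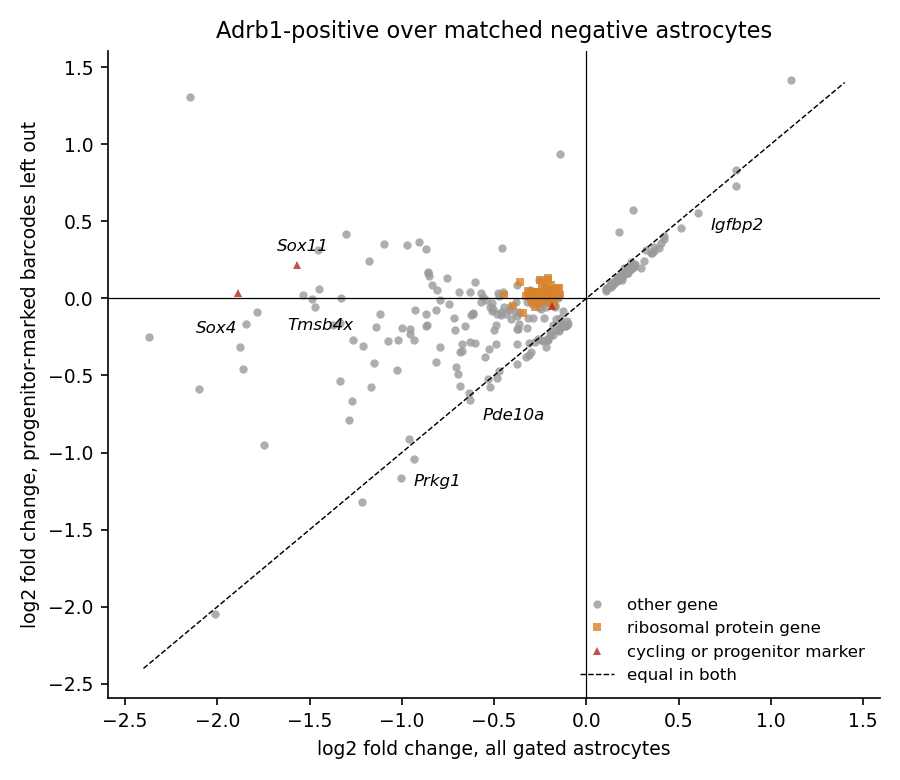
Log2 fold change of Adrb1-positive over matched negative astrocytes in all gated astrocytes (x axis) against the same with barcodes of more than 30 progenitor-list UMIs left out (y axis), for the 334 of 390 genes called in either that were tested in both. Ribosomal protein genes and cycling or progenitor markers lie left of 0 on the x axis and near or above 0 on the y axis, whereas Igfbp2 and Pde10a lie close to the dashed line of equal values.

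*Igfbp2* was the gene with the smallest p among those that rose in members, and rose in both comparisons. Its level was 143.5, 107.0 and 118.1 CPM in the members of libraries 1, 2 and 3 and 91.6, 84.5 and 75.9 CPM in their matched negatives. All members' values lay above all negatives' values (1.47-fold, log2 0.55, SE 0.056, adjusted p = 4.0e-11 in edgeR). With the progenitor-marked barcodes kept, the log2 fold change was 0.61 (SE 0.058, adjusted p = 1.9e-10). The transcript was also detected in more cells: 40.1% of members (648 of 1615) and 29.8% of matched negatives (481 of 1615) had an *Igfbp2* UMI, against 0.721%, 0.801% and 0.590% of the pericyte barcodes of libraries 1, 2 and 3.

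Members with more *Adrb1* UMIs were also compared with their own matched negatives, with all gated astrocytes. *Igfbp2* rose in members with exactly 1 *Adrb1* UMI (log2 0.52, SE 0.068, adjusted p = 3.9e-08 in edgeR) and in members with at least 2 (log2 0.83, SE 0.115, adjusted p = 2.0e-05). The difference between these values was not tested.

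*Igfbp2* was then read in each mouse whose cells could be assigned by hashtag, with all gated astrocytes and negatives matched within the mouse. It was higher in members in 14 of 16 mice, at 126 ± 57.2 CPM (SD, n = 16) against 64.0 ± 31.0 CPM (n = 16). By group, members and negatives were at 128 ± 82.1 and 54.2 ± 20.5 CPM in NoFC (SD, n = 4 mice), 128 ± 61.2 and 51.2 ± 40.4 CPM in FC (n = 4), 101 ± 42.2 and 81.9 ± 38.9 CPM in NoFR (n = 4), and 147 ± 51.8 and 68.8 ± 20.8 CPM in FR (n = 4). Members were higher in 3, 4, 3 and 4 mice of these groups. These values rest on few cells, from 5 members and 5 negatives in NoFC mouse 1 to 56 of each in FR mouse 4. FC mouse 3, with 7 of each, was at 215 CPM in members and 0 in negatives, and without it FC was at 98.8 ± 22.6 and 68.2 ± 26.4 CPM (n = 3). With mice in place of libraries as replicates, edgeR without the progenitor-marked barcodes gave *Igfbp2* a log2 fold change of 0.77 (SE 0.156, adjusted p = 0.0464), and it was the only gene called among the 4586 tested. With the progenitor-marked barcodes kept, the adjusted p was 0.0707 and no gene was called, although 305 of 4612 had an unadjusted p under 0.05.

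**Figure D3:**
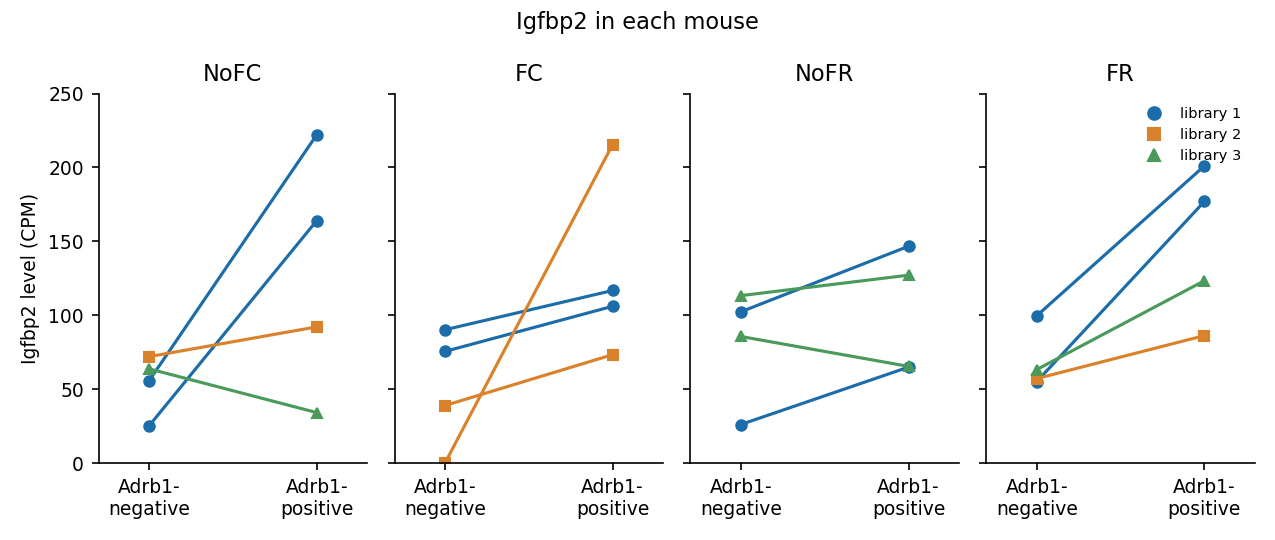
Igfbp2 level (CPM) in Adrb1-positive astrocytes and matched negatives of each mouse, by group, all gated astrocytes, with lines joining the values of 1 mouse and colours for libraries. The line rises in 14 of 16 mice, with 1 NoFC and 1 NoFR mouse as the exceptions.

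The other genes that rose had larger adjusted p-values than *Igfbp2*, and some of low level had larger fold changes. *Aldh1a1*, whose product makes retinoic acid from retinaldehyde, was at 146.6, 96.1 and 114.8 CPM in members and 109.9, 80.8 and 101.1 CPM in negatives, each library higher in members (1.23-fold, log2 0.29, SE 0.054, adjusted p = 0.00148 in edgeR). *Rpe65*, known as the retinoid isomerase gene of the visual cycle, was at 73.0, 61.5 and 79.5 CPM against 51.5, 57.4 and 67.0 CPM (log2 0.29, SE 0.068, adjusted p = 0.0188). With mice as replicates *Rpe65* was at 0.022 (adjusted p = 0.999) with all gated astrocytes and at −0.013 (adjusted p = 0.995) without the progenitor-marked barcodes, and with all gated astrocytes it missed the threshold without library 1 (adjusted p = 0.171) and in DESeq2 (adjusted p = 0.537). Levels differed between libraries by as much as between classes for both genes, so that the ranges of the classes overlapped.

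*Id2* and *Id3* encode helix-loop-helix proteins that lack a DNA-binding domain and restrain basic helix-loop-helix factors. *Id2* was at 480.5, 437.4 and 454.4 CPM in members and 407.0, 392.5 and 405.8 CPM in negatives, without overlap (1.14-fold, log2 0.19, SE 0.037, adjusted p = 0.0034 in edgeR). *Id3* was at 170.7, 149.4 and 233.3 CPM against 145.9, 145.7 and 173.3 CPM (log2 0.24, SE 0.049), and the ranges overlapped, with library 3 the highest in both classes. The cadherin gene *Cdh6*, a cell adhesion gene of low level, was at 10.2, 11.2 and 14.8 CPM against 6.9, 5.0 and 9.7 CPM (1.66-fold, log2 0.73, SE 0.165). With all gated astrocytes *Cdh6* was at 0.81, but missed the threshold with unmatched negatives (0.40, adjusted p = 0.0757), in DESeq2 (adjusted p = 0.566) and in 4 other alternatives. *Btbd17*, *Fam184b*, *Olfm2*, *Tmem35a*, *Gm11867* and *2410006H16Rik* completed the 12 higher genes of smallest p among those higher in all 3 libraries, with log2 fold changes from 0.22 to 0.83. With all gated astrocytes *Olfm2* and *2410006H16Rik* did not pass (log2 0.25 and 0.17, adjusted p = 0.454 and 0.529 in edgeR). Also with all gated astrocytes, *Btbd17* went from 0.26 to 0.17 without library 1 and missed the threshold (adjusted p = 0.139 in edgeR). *Fam184b* missed it at 0.25 without hashtag doublets (adjusted p = 0.136), and *Tmem35a* without library 1 (0.105) or library 3 (0.267). *Gm11867* has the opposite sign, −0.02, when cells called hashtag doublets are left out of all gated astrocytes. With all gated astrocytes, *Aldh1a1* and *Id3* missed the threshold in DESeq2 (adjusted p = 0.106 and 1) and, as *Id2* did, with mice as replicates (0.783, 0.673 and 0.562). *Aldh1a1* and *Id3* also missed it without the library block (adjusted p = 0.298 and 0.374 in edgeR) and in members with at least 2 *Adrb1* UMIs (0.320 and 0.128), and *Id3* went from 0.31 to 0.20 without library 3. Without the progenitor-marked barcodes, members with at least 2 *Adrb1* UMIs gave *Aldh1a1* a log2 fold change of 0.09 (adjusted p = 0.906 in edgeR), *Id2* 0.19 (0.430) and *Id3* 0.22 (0.586).

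**Figure D4:**
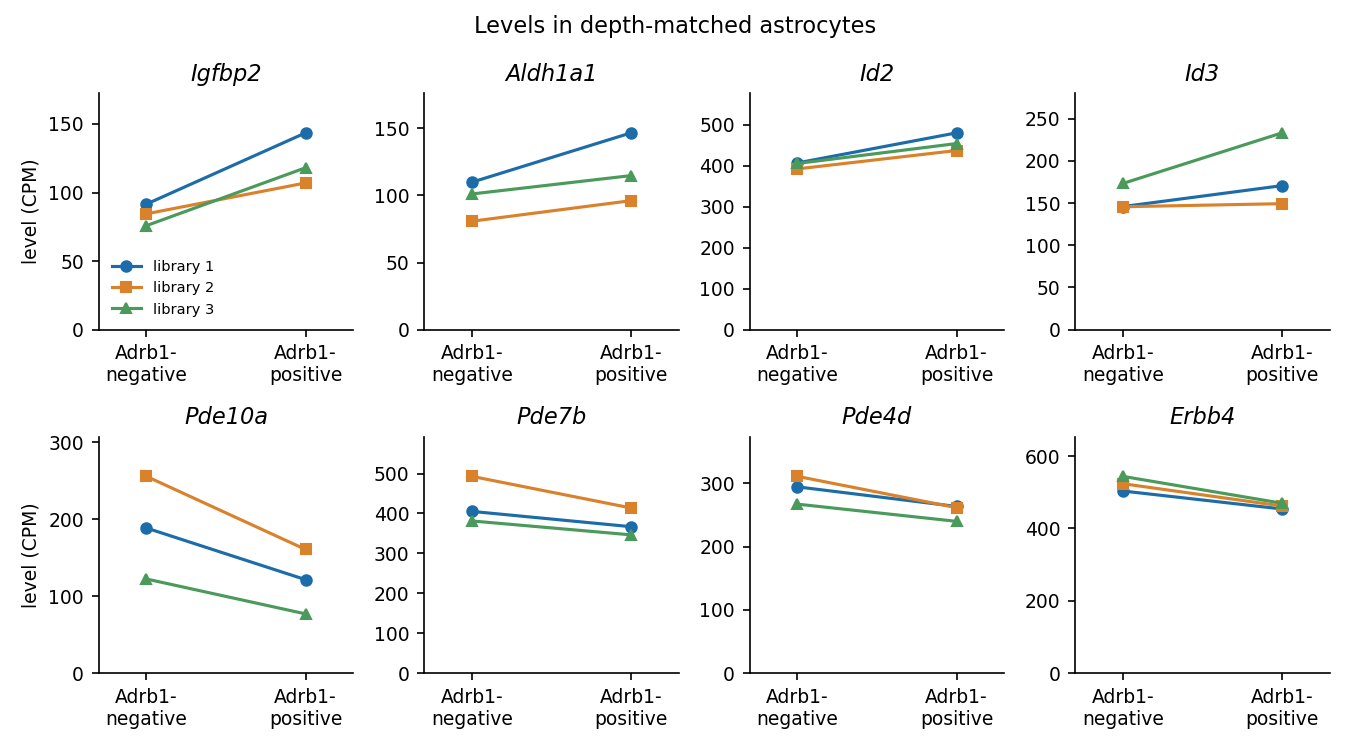
Levels (CPM) of 4 genes that were higher (top) and 4 that were lower (bottom) in Adrb1-positive astrocytes than in depth-matched negatives of libraries 1 to 3, progenitor-marked barcodes left out. Lines join the 2 classes of a library and all run in 1 direction within a gene; Pde10a also differs between libraries.

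Among genes lower in members, *Pde10a* had the smallest p. It encodes a phosphodiesterase that breaks down cAMP and cGMP and is known from striatal projection neurons. Its level was 121.3, 160.6 and 76.9 CPM in the members of libraries 1, 2 and 3 and 188.4, 255.4 and 122.2 CPM in negatives (0.635-fold, log2 −0.66, SE 0.048, adjusted p = 1.0e-17 in edgeR). Each library fell, but library 3 negatives lay at the level of library 1 members, so that the ranges overlapped. *Pde10a* was found in 20.3%, 27.3% and 14.7% of members and 27.4%, 30.8% and 20.3% of negatives. With all gated astrocytes the fall did not pass in members with at least 2 *Adrb1* UMIs (log2 −0.27, adjusted p = 0.309), with mice as replicates (log2 −0.71, adjusted p = 0.562) or without the library block (log2 −0.63, adjusted p = 0.300).

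*Pde10a* belonged to a list of 32 genes downstream of Gs. Of 27 tested, edgeR called 3 lower in members (*Pde10a*, *Pde7b* and *Pde4d*), beside 0.279% of all genes, and 0 higher, whereas DESeq2 called 1 (*Pde10a*). Log2 fold changes were above 0 in 10 of the 27 and below it in 17, with a median log2 fold change of −0.05 beside 0.00 over all genes tested. All 3 encode phosphodiesterases. *Pde10a* and *Pde7b* are long genes, of 461277 and 327075 bases, and the length of *Pde4d* is not given here. Of all 36 genes called lower, 32 were over 100 kb (88.9%), beside 14.9% of all genes tested. Genes over 100 kb took a lower share of UMIs in members than in negatives of each library. The part of gene length in these calls was not tested. *Pde7b*, specific for cAMP, was at 366.9, 413.8 and 346.4 CPM in members and 405.2, 493.0 and 381.3 CPM in negatives (log2 −0.18, SE 0.038, adjusted p = 0.00769 in edgeR). *Pde4d*, also specific for cAMP, was at 263.6, 261.6 and 240.0 CPM against 294.6, 311.2 and 267.3 CPM (log2 −0.19, SE 0.040, adjusted p = 0.00957). With the progenitor-marked barcodes kept, *Pde7b* and *Pde4d* had adjusted p-values of 0.0636 and 0.0544 and only *Pde10a* was called. *Pde7b* was then at −0.13, and at −0.08 without library 2. In members with at least 2 *Adrb1* UMIs it was at −0.02 (adjusted p = 0.965 in edgeR) with those barcodes and at −0.14 (0.696) without them. *Pde4b* did not pass (log2 −0.05, adjusted p = 0.771), nor did the Gs gene *Gnas* (0.01, 0.971), the adenylyl cyclase gene *Adcy8* (−0.10, 0.667) or *Creb1* (−0.04, 0.919).

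*Erbb4*, a neuregulin receptor gene, was at 453.8, 461.9 and 469.6 CPM in members and 503.5, 523.7 and 543.9 CPM in negatives, without overlap (0.882-fold, log2 −0.18, SE 0.036, adjusted p = 0.00362 in edgeR). With all gated astrocytes *Erbb4* did not pass (log2 −0.12, adjusted p = 0.0723 in edgeR and 1 in DESeq2). *Prkg1*, the gene of a cGMP-dependent kinase, was at 1.43, 3.63 and 4.94 CPM against 5.09, 7.68 and 9.12 CPM (log2 −1.17, SE 0.236), on 11, 22 and 33 UMIs in members. With all gated astrocytes *Prkg1* missed the threshold without library 1 (adjusted p = 0.157 in edgeR), without library 3 (0.0532), without hashtag doublets (log2 −0.64 against −1.01, 0.331), without the library block (0.351) and in DESeq2 (0.986). *Csmd1*, *Lhfp*, *Lrrc7*, *Prickle2*, *Pdzrn3* and the noncoding genes *9530026P05Rik* and *Gm9750* were also among the 12 genes of smallest p that were lower in all 3 libraries, with log2 fold changes from −0.62 to −0.20. These calls depended on the processing: over 16 alternatives to the comparison of all gated astrocytes, *Lhfp*, *Csmd1* and *Gm9750* kept their call in 6 each and *Prickle2* in 5. *Lhfp* went from −0.15 to −0.088 without library 1 (adjusted p = 0.613 in edgeR), and *Lrrc7* from −0.64 to −0.04 in members with at least 2 *Adrb1* UMIs (adjusted p = 0.974). *Gm9750* and *9530026P05Rik* are annotated as antisense genes, and the sources used here do not say whether the counts used strand.

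Most of the 36 genes that were lower had long gene bodies. Their median length was 268.7 kb, and 32 of them (88.9%) were over 100 kb, against a median of 24.7 kb and 14.9% over 100 kb among all genes tested, and a median of 27.1 kb and 35.7% over 100 kb (5 genes) among the 14 that were higher. Genes over 100 kb took 34.2%, 34.8% and 34.6% of the UMIs of members in libraries 1, 2 and 3 and 34.7%, 35.3% and 36.1% in negatives. *Malat1*, a nuclear noncoding RNA, took 8.92%, 9.40% and 9.07% of UMIs in members and 9.27%, 9.45% and 8.73% in negatives. Mitochondrial genes took 2.00%, 2.02% and 2.05% in members and 1.99%, 1.96% and 1.96% in negatives, higher in members of each library. Cell Ranger 7.0.0, the version in the file headers, counts intronic reads by default, but the methods name version 3.0 and the sources used here do not give the setting. The part of gene length and of these differences in RNA content in the calls was not tested.

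The other adrenoreceptor genes that were tested did not pass. *Adra1a* was at 59.5, 73.9 and 73.3 CPM in members and 56.0, 63.8 and 75.7 CPM in negatives (log2 0.08, SE 0.065, adjusted p = 0.790 in edgeR). Its sign turned with mice as replicates (log2 −0.09), and in members with at least 2 *Adrb1* UMIs it was at 0.22 (adjusted p = 0.755), or at 0.37 (0.189) with all gated astrocytes. Members and negatives overlapped, and 43.0% of members (695 of 1615) and 40.7% of negatives (658 of 1615) had an *Adra1a* UMI, against 7.33%, 8.81% and 6.19% of the pericyte barcodes. *Adra1b*, another Gq-coupled α1-receptor gene, was at 7.78, 8.57 and 10.3 CPM against 5.88, 5.01 and 7.60 CPM, without overlap (log2 0.52, SE 0.184, unadjusted p = 0.00629, adjusted p = 0.304). *Adra2a*, coupled to Gi, had a log2 fold change of 0.12 (adjusted p = 0.939). *Adra2c* had 2 UMIs in all members and 1 in the negatives, and *Adra1d*, *Adra2b* and *Adrb3* had 0 in both, so that these were not tested.

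*Fos*, an activity-induced transcription factor gene, was at 2.85, 4.78 and 5.69 CPM in members and 2.22, 4.17 and 4.86 CPM in negatives (log2 0.25, SE 0.259, adjusted p = 0.843 in edgeR). It was detected in 74 members (4.58%) and 61 negatives (3.78%). Of 22 immediate early and cAMP response genes, 12 were tested and 0 were called in edgeR or DESeq2 (0 at an unadjusted p under 0.05, median log2 0.01). With the progenitor-marked barcodes kept, edgeR called 1 of the 12 lower, beside 2.22% of all genes, and DESeq2 called 0. This was *Ier5* (log2 −0.86, adjusted p = 0.000106), which was at −0.18 without them (adjusted p = 0.838).

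Of 14 genes of the insulin-like growth factor system, 8 were tested. EdgeR called *Igfbp2* higher and *Igfbp7* lower, beside 0.108% and 0.279% of all genes, DESeq2 called *Igfbp2* alone, and the median log2 fold change was −0.05. The receptor gene *Igf1r* had a log2 fold change of −0.14 (SE 0.047, adjusted p = 0.281), and with the progenitor-marked barcodes kept it was called lower at −0.17 (adjusted p = 0.0405 in edgeR). *Igfbp5* was at 0.02 (adjusted p = 0.970), although with those barcodes kept it was called lower at −0.47. *Igfbp7* was at 1.56, 1.48 and 1.50 CPM in members and 5.88, 0.835 and 13.1 CPM in negatives, so that it was lower in 2 of 3 libraries (log2 −2.05, adjusted p = 7.5e-05). The 7 endothelial markers, of which *Flt1* was the most abundant and the only one tested, summed to 4.54, 1.15 and 5.17 CPM in members and 24.2, 3.29 and 2.91 CPM in negatives. The 7 smooth muscle and stromal markers summed to 18.5, 21.2 and 22.6 CPM in members and 18.9, 18.3 and 44.1 CPM in negatives. The part of either list in the *Igfbp7* value was not tested.

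No single astrocyte marker passed once the progenitor-marked barcodes were left out, but most had values slightly higher in members. Of 20 tested, 0 were called in edgeR or DESeq2, 18 had a log2 fold change above 0 and 7 had an unadjusted p under 0.05, which 1122 of all 12920 genes had. The list, led by *Apoe*, summed to 28551, 28769 and 28825 CPM in members and 27870, 27457 and 27179 CPM in negatives, without overlap. The median was 0.05, and *Aldoc* was at 0.06, *Apoe* at 0.06 and *Aqp4* at 0.09. With those barcodes kept, edgeR called 5 higher, beside 0.628% of all genes, among them *Aqp4*, *Apoe*, *Atp1b2* and *Aldoc*, with a list median of 0.10, and DESeq2 called 2. Genes of other astrocyte receptors, of which 15 were tested, likewise had mostly slightly higher values in members. With the barcodes kept, DESeq2 called 1 and edgeR called 4 higher, beside 0.628% of all genes, namely *Gpr37l1*, *S1pr1* of the sphingosine phosphate receptor, *Grm5* of a glutamate receptor and *Adora2b* of the Gs-coupled adenosine receptor. Without them 0 were called in edgeR or DESeq2 (4 at an unadjusted p under 0.05), 12 of 15 had a log2 fold change above 0, and the list, led by *Grm3*, summed to 5448, 5449 and 5618 CPM in members and 5243, 5294 and 5309 CPM in negatives, without overlap. For the 4 genes named, the log2 fold changes were 0.11 (adjusted p = 0.148), 0.09 (0.284), 0.30 (0.182) and 0.20 (0.317).

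For lists of energy supply and region, few or no genes were called. Of 16 tested genes of glycogen and lactate handling, 0 were called in edgeR or DESeq2 (2 at an unadjusted p under 0.05), and the glucose transporter gene *Slc2a1* had a log2 fold change of 0.17 (adjusted p = 0.298). It was called higher with the progenitor-marked barcodes kept (0.22, adjusted p = 0.0244 in edgeR), beside 0.628% of all genes. None of 21 tested regional patterning factors was called in either comparison (median 0.06 without those barcodes), nor any of 14 receptor kinase, arrestin and scaffold genes (−0.01), 11 genes of Gq and calcium stores (−0.04) or 3 genes of noradrenaline uptake and breakdown (−0.05). Without those barcodes, 1, 1, 3 and 0 genes of these lists had an unadjusted p under 0.05 in edgeR, and DESeq2 called 0 of each. Of 11 tested reactive astrocyte genes, 0 were called without those barcodes in either tool (3 at an unadjusted p under 0.05, median 0.01) and with them kept edgeR called 1 lower, *Vim* (log2 −0.57, adjusted p = 0.0295), beside 2.22% of all genes, and DESeq2 called 0.

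Leading genes of 3 astrocyte subtypes in these data, 1 of them marked by *Igfbp2* and *Lmo1* together, were also compared. *Lmo1*, named with *Igfbp2* for that subtype, was at a log2 fold change of 0.13 (SE 0.071, adjusted p = 0.624 in edgeR) and higher in members in 3 of 3 libraries. *Kcnma1* was at 0.01 (adjusted p = 0.987), *Gli2* at −0.02 (0.941) and *Gm41492* at −0.00 (0.997). *Agt*, the angiotensinogen gene, was at −0.16 (SE 0.043, adjusted p = 0.109) and lower in members in all 3 libraries, and *Nkx6-2* at −0.12 (0.699). Of these 7 genes *Igfbp2* was the only one called, as higher, beside 0.108% of all genes.

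Markers of pericytes, smooth muscle and stroma, oligodendrocyte lineage, and microglia gave no call in either comparison (4, 2, 4 and 2 genes tested), and 0 of these had an unadjusted p under 0.05 in edgeR without the progenitor-marked barcodes. The 9 pericyte markers, led by *Pdgfrb*, summed to 165.1, 173.1 and 190.1 CPM in members and 176.8, 160.5 and 196.4 CPM in negatives. The 9 oligodendrocyte lineage markers, led by *Olig1*, summed to 47.5, 47.6 and 47.9 CPM against 43.5, 46.9 and 47.6 CPM, and the 7 microglia and macrophage markers, led by *P2ry12* and with 2 at 0 UMIs, to 16.7, 18.5 and 17.2 CPM against 20.6, 21.4 and 17.2 CPM. The 7 smooth muscle and stromal markers, led by *Col1a2*, summed to 18.5, 21.2 and 22.6 CPM against 18.9, 18.3 and 44.1 CPM.

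To ask whether fear conditioning or recall changed how many astrocytes carried *Adrb1*, shares were computed per mouse from the 1893 astrocytes that hashtags assigned to a listed mouse. The shares were 11.1%, 23.1%, 20.2% and 15.0% in NoFC mice 1 to 4, on 45, 91, 203 and 80 astrocytes. In FC mice they were 21.8%, 22.2%, 13.2% and 19.4%, on 202, 144, 53 and 67 astrocytes. In NoFR mice they were 19.8%, 26.2%, 22.1% and 17.4%, on 106, 65, 104 and 109 astrocytes, and in FR mice 19.9%, 22.7%, 19.1% and 24.6%, on 156, 88, 152 and 228. The order of the group means was NoFC (17.3 ± 5.33%, SD, n = 4), FC (19.2 ± 4.15%, n = 4), NoFR (21.4 ± 3.71%, n = 4) and FR (21.6 ± 2.54%, n = 4), and every neighbouring pair overlapped. The *Adrb1* level per mouse was 20.5 ± 7.45, 22.0 ± 5.05, 24.8 ± 6.29 and 25.7 ± 3.93 CPM in the same order.

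**Figure D5:**
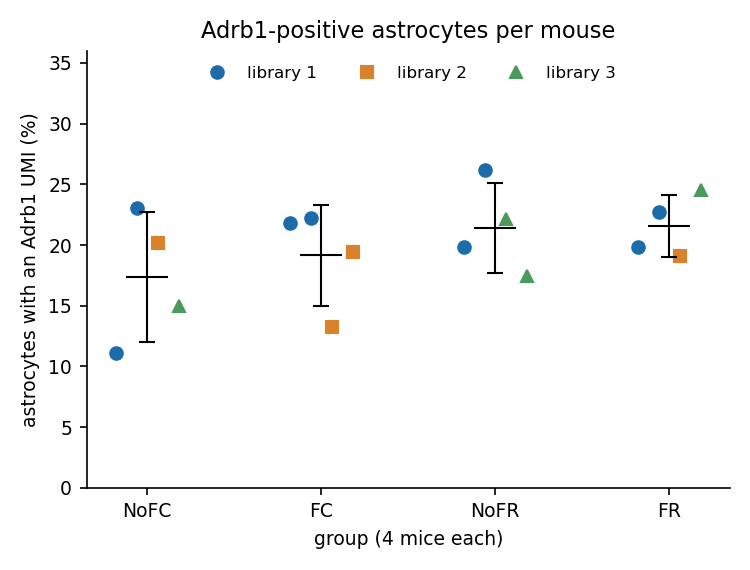
Share of astrocytes with an Adrb1 UMI (%) in each mouse, by group; colours mark libraries, and bars give the mean and SD of 4 mice. The 4 groups overlap, with the lowest mouse at 11.1% in NoFC and the highest at 26.2% in NoFR.

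None of the 3 pairs of groups compared passed the 2-sided exact permutation test over mice. FC exceeded NoFC by 1.81 percentage points (SE 3.38, p = 0.629, adjusted over 3 pairs 0.914, exact permutation). In library 1 the means were 22.0% for 2 FC mice and 17.1% for 2 NoFC mice, and in library 2 they were 16.3% for 2 FC mice and 20.2% for 1 NoFC mouse. NoFR exceeded NoFC by 4.03 points (SE 3.25, exact permutation p = 0.286, adjusted 0.857), with means of 23.0% and 17.1% in library 1 and of 19.8% for 2 mice and 15.0% for 1 in library 3. FR exceeded NoFR by 0.182 points (SE 2.25, exact permutation p = 0.914, adjusted 0.914), with means of 21.3% and 23.0% in library 1 and of 24.6% for 1 mouse and 19.8% for 2 in library 3. The smallest p that 4 mice against 4 allow is 0.0286. At a hashtag quantile of 0.95 in place of 0.99, FC exceeded NoFC by 5.52 points and FR exceeded NoFR by 4.05 (exact permutation p = 0.0571 for each), and NoFR exceeded NoFC by 2.92 points (exact permutation p = 0.286). With at least 2 *Adrb1* UMIs asked of a positive cell, FC against NoFC was at −0.126 points and NoFR against NoFC at −0.134. Leaving out 1 mouse moved FC against NoFC between −0.271 (without NoFC mouse 1) and 3.79 points (without FC mouse 3), FR against NoFR between −1.13 and 1.77, and NoFR against NoFC between 1.95 (without NoFC mouse 1) and 5.94. With every cell thinned to 7871 UMIs, which kept 1420 of the 1893 astrocytes, the shares were 12.8 ± 4.42%, 16.1 ± 6.37%, 18.8 ± 4.52% and 18.0 ± 5.21% in NoFC, FC, NoFR and FR (SD, n = 4 each).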

How the data were processed

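The files hold raw UMI counts of genes and hashtags, as the authors deposited them, for sorted amygdala cells in 3 libraries. Methods name Cell Ranger 3.0 on mm10, and the file headers name 7.0.0, which counts intronic reads by default; the sources used here do not give the setting. Members and gene lists were chosen with earlier results of these data known. Each positive astrocyte was matched to the nearest negative of its library by total UMIs, each used once. Counts were summed per library and class and tested with edgeR 4.0.16 (R 4.3.3; TMM, low-count filter, library as block, since both classes come from the same pool; correlations of same-library deviations were 0.195, 0.0310 and 0.113). CPM of single genes in the members and negatives of a library were scaled by the TMM factors. List sums, *Adrb1* levels and values per mouse are per 1000000 summed gene UMIs without these factors. DESeq2 1.42.0 was an alternative. Named genes were the 12 of smallest p per direction with adjusted p under 0.05 and one direction in all 3 libraries, applied to both comparisons, plus *Igfbp2*, *Adra1a*, *Fos* and at most 4 genes a list; a few genes that the rule or lists include are not reported here; other named list genes were chosen after their values were seen. Mice were assigned by HTODemux (Seurat 5.3.0, quantile 0.99): of 8136 astrocytes 2771 were singlets, 1331 doublets and 4034 negative, and 1893 had a listed mouse. Hashtag counts were low, so these calls are fragile. Doublets stayed in the main comparison. The scripts were tested on simulated data. Gene positions come from GENCODE vM21, a release close to the authors' annotation.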

Additional observations from a re-analysis of the deposited data

How the results depend on the processing

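Against 372 called genes, DESeq2 called 54, the fit with no replicate block 85, mice as replicates 0 (305 at an unadjusted p under 0.05 in edgeR), members with exactly 1 *Adrb1* UMI 136, and leaving out the progenitor-marked barcodes 50. Leaving out 1 library gave 242 to 393 calls, with the lowest count without library 1. Against the 50, also chosen after seeing the data, DESeq2 called 3 (*Igfbp2* and *Pde10a* among them), the fit with no replicate block 1 and mice as replicates 1 (*Igfbp2* in both), members with at least 2 UMIs 21 and unmatched negatives 94, and leaving out 1 library 24 to 39. *Igfbp2* stayed between 0.52 and 0.83 (log2) over 16 alternatives and missed the threshold with mice as replicates. *Sox11* turned to 0.21 without the progenitor-marked barcodes, *Adra1a* to −0.040 and *Gm9750* to 0.024 with mice as replicates, *Rpe65* to −0.013 with mice as replicates and without those barcodes, and *Gm11867* to −0.18 with at least 2 UMIs and −0.022 without hashtag doublets. With at least 2 *Adrb1* UMIs, the share differences turned to −0.126 points for FC against NoFC and −0.134 for NoFR against NoFC. FR against NoFR turned to −0.840 when thinned. At a hashtag quantile of 0.95, FC exceeded NoFC by 5.52 points and FR exceeded NoFR by 4.05 (exact permutation p = 0.0571 for each). Leaving out 1 mouse gave −0.271 to 3.79 points for FC against NoFC, 1.95 to 5.94 for NoFR against NoFC and −1.13 to 1.77 for FR against NoFR; none of these share alternatives passed the exact permutation test. The causes were not tested. An *Adrb1* UMI was seen in 19.9% of astrocytes, so that depth limits who is called negative.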
